A study of Homo sapiens with 12 samples.

Results

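The collagen genes were examined in U251 cells, an established human glioblastoma line, transfected with siRNAs against *PD-L1* and given IFNγ. The members are the genes whose symbol is COL, a number, A and a number, which is the naming of the collagen alpha chains, and 44 of the 45416 genes in the deposited table met this rule. Of these, 30 had a mean of 1 CPM or more over the 12 libraries, where CPM is the authors' read count of a gene normalized for library size. At a limit of 0.5 CPM the number was 32, and at 2 CPM it was 26.

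Cells labelled as wild type were transfected with a control siRNA (siNC) or with 1 of 2 siRNAs against *PD-L1* (siPDL1-1 and siPDL1-2), and 48 h later were left unstimulated or given 100 U/ml IFNγ for 24 h. Each of the 6 groups had 2 libraries, which the methods attribute to independent experiments. Every group was transfected, and the control siRNA was the reference in each IFNγ state. Because each siRNA is a single sequence, the loss of *PD-L1* and any other effect of that sequence cannot be told apart within 1 siRNA.

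Collagens are trimers of alpha chains wound into a triple helix, and the chains of a trimer come from a single gene in many types and from different genes in others, such as types I, IV, V and VI. Fibrillar collagens (types I, III, V and others) form the tensile fibers of connective tissue, type IV forms the network of basement membranes, type VI forms beaded filaments close to the cell surface, and FACIT collagens attach to fibrils without forming them. Brain tissue holds little fibrillar collagen, most of it around vessels and meninges, whereas glioblastoma cells in culture and in tumors can produce several types.

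*CD274*, the gene that encodes PD-L1, measured 4.60 and 4.91 CPM in unstimulated siNC cells, 2.67 and 2.73 CPM with siPDL1-1 and 3.57 and 3.45 CPM with siPDL1-2. After IFNγ the levels were 71.2 and 76.0, 60.9 and 66.7, and 37.5 and 35.0 CPM in the same order. Both siRNAs were thus below siNC in every pair of libraries, but after IFNγ the reduction with siPDL1-1 did not pass the test (log2 fold change -0.20 ± 0.08 SE, limma adjusted p = 0.0498), whereas with siPDL1-2 the mean was 0.493 times that of siNC (limma adjusted p = 4.25e-07). The libraries held between 17101069 and 55657393 reads on genes, so that 1 read was worth 0.0187 to 0.0586 CPM. Of 10 glioma and astrocyte markers 9 reached 1 CPM, with *VIM* at 3502 and *SOX2* at 161 CPM, while *GFAP*, the classical astrocyte filament gene, was at 4.38 and *OLIG2* at 0.127 CPM.

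The mean levels of the collagen genes ran from 0.00720 to 698 CPM, as the plot of levels shows. 9 members exceeded 100 CPM, 8 lay between 10 and 100 CPM and 13 between 1 and 10 CPM. At least 1 read was counted for all 44. The highest mean was that of *COL6A1* at 698 CPM, followed by *COL4A2* at 440, *COL5A1* at 438, *COL18A1* at 410, *COL6A2* at 291 and *COL4A1* at 232 CPM. Per kb of canonical transcript, which allows levels of different genes to be compared, *COL6A1* remained highest at 166 CPM per kb, followed by *COL6A2* at 84.4, *COL18A1* at 75.7, *COL4A2* at 68.3, *COL5A1* at 51.9 and *COL4A1* at 35.5 CPM per kb. In other words, the leading collagen transcripts in these cells were those of types VI, XVIII, IV and V, while type I, the main collagen of skin and bone, was lower, with *COL1A2* at 20.5 and *COL1A1* at 3.21 CPM per kb.

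**Figure D1:**
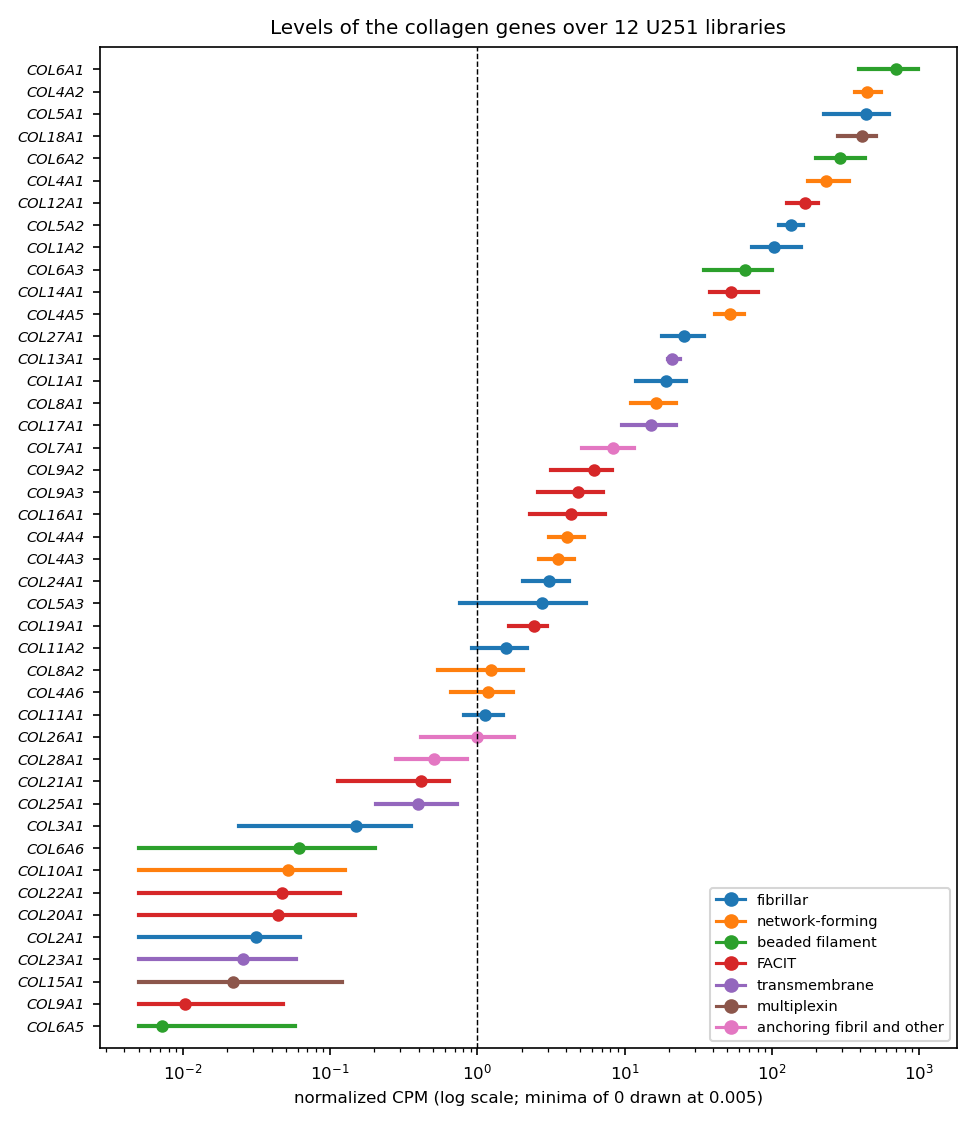
Level of each of the 44 collagen genes in normalized CPM on a log scale, with the point at the mean and the line from the lowest to the highest of 12 libraries, colored by structural class; the dashed line marks 1 CPM. The 30 genes with a mean at or right of the dashed line run from *COL11A1* at 1.12 CPM to *COL6A1* at 698 CPM.

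By structural class, beaded filament collagen (type VI) took 32.6% of the summed mean CPM of all members, the network-forming class 23.3%, the fibrillar class 22.6%, the multiplexin class 12.7%, FACIT collagens 7.38%, transmembrane collagens 1.13% and the 3 remaining genes (types VII, XXVI and XXVIII) 0.306%. Per kb of transcript the shares in the same order were 43.9%, 19.8%, 17.1%, 12.9%, 4.47%, 1.61% and 0.232%. Of the 11 fibrillar genes, 9 reached 1 CPM. Among them *COL5A2* was at 134, *COL1A2* at 104, *COL27A1* at 25.3, *COL1A1* at 19.0, *COL24A1* at 3.08, *COL5A3* at 2.74, *COL11A2* at 1.56 and *COL11A1* at 1.12 CPM. Those absent at this limit were *COL3A1*, the partner of type I in soft tissues, at 0.150 CPM, and *COL2A1*, the cartilage collagen, at 0.0313 CPM.

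All 6 type IV chains were detected above 1 CPM. *COL4A5* was at 51.7, *COL4A4* at 4.04, *COL4A3* at 3.53 and *COL4A6* at 1.18 CPM, so that the classical pair *COL4A1* and *COL4A2* dominated. *COL8A1*, a short-chain network collagen of vessel walls and the cornea, was at 16.3 CPM and *COL8A2* at 1.24 CPM, while *COL10A1*, the collagen of hypertrophic cartilage, was at 0.0516 CPM. Of type VI, *COL6A3* was at 65.5 CPM, and *COL6A6* and *COL6A5* were at 0.0613 and 0.00720 CPM. Multiplexin *COL18A1*, whose C-terminal fragment is endostatin, stood high while its relative *COL15A1* was at 0.0219 CPM.

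Among the 10 FACIT genes, *COL12A1* at 167 CPM and *COL14A1* at 53.0 CPM, which both decorate type I fibrils, were far above *COL9A2* at 6.23, *COL9A3* at 4.81, *COL16A1* at 4.34 and *COL19A1* at 2.43 CPM. *COL21A1*, *COL22A1*, *COL20A1* and *COL9A1* lay between 0.0103 and 0.413 CPM. Of the transmembrane collagens, *COL13A1* was at 21.1 CPM and *COL17A1*, the hemidesmosomal collagen of epithelia, between 9.60 and 22.2 CPM over the libraries, with *COL25A1* at 0.394 and *COL23A1* at 0.0258 CPM. *COL7A1*, which makes the anchoring fibrils of skin, was at 8.36, *COL26A1* at 0.994 and *COL28A1* at 0.511 CPM. For members listed at 0 reads in a library, a count of 0 allows up to 3 reads, and this covers counting error only.

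By the deposited GRCh38 coordinates, *COL6A1* (chr21:45981769-46005050) and *COL6A2* (chr21:46098112-46132848) are neighbors on the plus strand, and *COL18A1* (chr21:45405165-45513720) lies on the same arm. *COL4A1* (chr13:110148963-110307157) and *COL4A2* (chr13:110305812-110513209) run in opposite directions from a common start. *COL4A3* and *COL4A4* on chromosome 2 stand head to head with 170 bases between them, and *COL4A5* and *COL4A6* on chromosome X with 340 bases. Among the fibrillar genes, *COL3A1* and *COL5A2* are neighbors on chromosome 2 with 19151 bases between them. Elsewhere lie *COL5A1* at chr9:134641803-134844843, *COL5A3* at chr19:9959561-10010504 and *COL1A2* at chr7:94394895-94431227.

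Some collagen genes overlap other genes on the opposite strand, and the authors counted both strands together, so strand cannot separate reads in shared bases. The overlaps given are of whole gene spans, introns included, and the exon bases shared were not computed. *COL4A1* and *COL4A2* overlap each other by 1346 bases, and *COL18A1* overlaps *SLC19A1* (44.7 CPM). *COL10A1* overlaps *NT5DC1* (42.1 CPM), *COL9A3* overlaps *TCFL5* (30.8 CPM), *COL19A1* overlaps *LMBRD1* (26.9 CPM) and *COL4A3* overlaps *MFF-DT* (1.03 CPM).

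Collagen transcript levels were higher in cells given siPDL1-1 than in siNC cells. Summed over the 44 members, the level was 2941 ± 148 CPM (SD, n = 2) in unstimulated siNC cells, 4132 ± 24.6 in siPDL1-1 and 3045 ± 30.1 in siPDL1-2 cells. After IFNγ it was 2400 ± 221, 3844 ± 284 and 3009 ± 42.2 CPM. As a share of all reads on genes these were 0.301 ± 0.0145% for siNC, 0.422 ± 0.00274% for siPDL1-1 and 0.315 ± 0.00350% for siPDL1-2 unstimulated, and 0.231 ± 0.0205%, 0.373 ± 0.0271% and 0.298 ± 0.00183% after IFNγ. The siPDL1-1 libraries were highest in both states. In summed CPM, siPDL1-2 overlapped with siNC in unstimulated cells and lay above it after IFNγ. By share of reads the unstimulated siPDL1-2 libraries, at 0.318% and 0.313%, lay above those of siNC, at 0.290% and 0.311%. In bulk RNA, fewer cells of a state and less RNA per cell cannot be told apart.

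A test was possible for 35 members, and the other 9 had too few reads. A gene was counted as changed at a limma adjusted p (FDR) under 0.01 with a fold change over 1.5. In unstimulated cells siPDL1-1 raised 9 of the 35 and lowered 1, where the background over all 17982 genes tested was 2.55% raised and 1.45% lowered. After IFNγ it raised 9 and lowered 1, against a background of 3.73% raised and 1.75% lowered. Of the genes raised, 8 were raised in both states, and *COL17A1* was lowered in both. The share of all genes called in both states was not computed, so this recurrence is not read as particular to collagens. The median log2 fold change of the tested members was 0.34 in both states, while that of all genes tested was 0.02 unstimulated and -0.00 after IFNγ.

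With siPDL1-2 fewer collagen genes changed. In unstimulated cells it raised 1 and lowered 1 of the 35, against a background of 4.84% raised and 1.33% lowered, and after IFNγ again 1 and 1, against 1.92% and 1.2%. By FDR alone, with no limit on fold, 9 members were higher and 3 lower than in siNC without IFNγ (background 16.5% and 11.9%), and 12 were higher and 2 lower after it (background 8.6% and 9.75%). The median of the members was 0.12 and 0.18 on the log2 scale in these states. The count after IFNγ depended on the test and on single libraries: it was 6 by edgeR, 5 without the first siNC library or without the first siPDL1-2 library, and 1 without the second library of either group. Without IFNγ it was 5 when the second siNC library was left out and 4 without the second siPDL1-2 library.

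**Figure D2:**
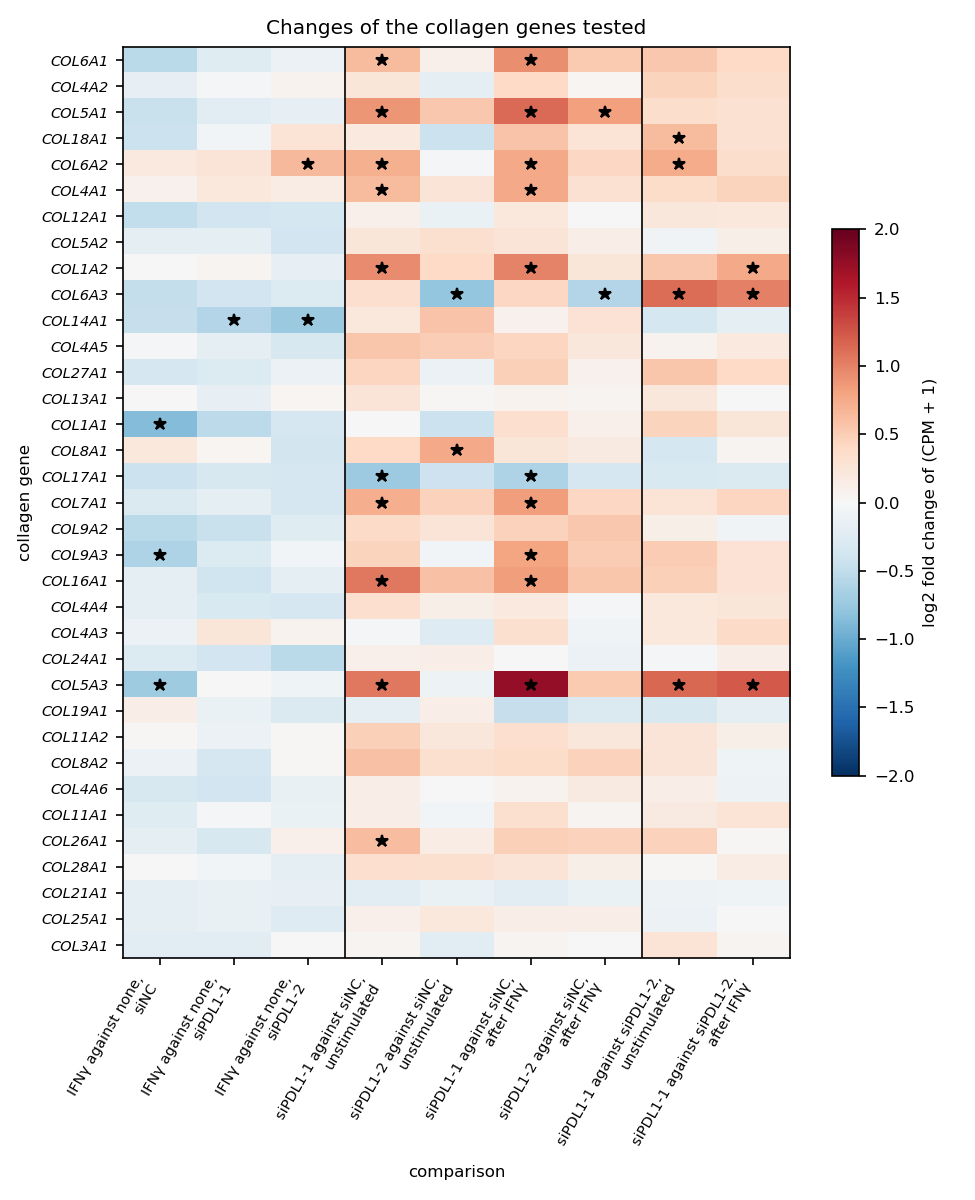
Log2 fold change of (CPM + 1) for the 35 collagen genes tested (vertical axis, ordered by mean level) in 9 comparisons (horizontal axis); red is higher and blue lower in the group named first, and a star marks a change past the test (FDR under 0.01 and fold over 1.5). Stars gather in the siPDL1-1 columns, with 9 raised genes and 1 lowered gene in each IFNγ state, and IFNγ columns are mostly blue.

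Among fibrillar collagens, siPDL1-1 raised *COL5A1*, *COL5A3* and *COL1A2* in both IFNγ states. Type V collagen sits inside type I fibrils and controls their diameter, and *COL5A1* encodes its obligatory chain. Unstimulated, *COL5A1* was at 317 and 345 CPM with siNC, 605 and 621 CPM with siPDL1-1 and 485 and 478 CPM with siPDL1-2. After IFNγ it measured 257 and 228, 571 and 492, and 425 and 432 CPM in the same order. Both siRNAs were above siNC in every library, and siPDL1-1 was above siPDL1-2 in each state. For siPDL1-1 the log2 fold change was 0.89 ± 0.07 unstimulated (limma adjusted p = 1.61e-06) and 1.13 ± 0.07 after IFNγ (limma adjusted p = 1.12e-07). With siPDL1-2 it was 0.54 ± 0.07, under the fold limit, and 0.82 ± 0.07 after IFNγ (limma adjusted p = 5.15e-06).

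*COL5A3* encodes the third, less widely used chain of type V. *COL5A3* stood at 1.81 and 2.13 CPM in unstimulated siNC cells, against 5.19 and 5.08 CPM with siPDL1-1 and 1.75 and 1.80 CPM with siPDL1-2. The IFNγ-stimulated libraries gave 0.768 and 0.851 CPM for siNC, 5.48 and 4.80 CPM for siPDL1-1 and 1.47 and 1.75 CPM for siPDL1-2. The 4 siPDL1-1 libraries were the highest, and the siNC libraries given IFNγ the lowest. The log2 fold change with siPDL1-1 was 1.05 ± 0.12 unstimulated (limma adjusted p = 9.33e-06) and 1.76 ± 0.12 after IFNγ (limma adjusted p = 2.95e-08), a 6.35-fold ratio of mean CPM and the largest change of any member. For siPDL1-2 after IFNγ it was 0.53 ± 0.12, under the fold limit, although edgeR gave 1.02 and passed it.

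*COL1A2* encodes the second chain of type I collagen. In siNC cells *COL1A2* was at 74.4 and 73.7 CPM unstimulated and 73.7 and 74.1 CPM after IFNγ. The matching values were 142 and 144, then 159 and 139 CPM in siPDL1-1 cells, and 99.7 and 95.9, then 86.4 and 88.3 CPM in siPDL1-2 cells. The siPDL1-1 libraries were highest in each state, with siPDL1-2 between them and siNC. siPDL1-1 raised it by a log2 fold change of 0.94 ± 0.05 unstimulated (limma adjusted p = 1.68e-08) and 1.00 ± 0.05 after IFNγ (limma adjusted p = 3.12e-09). With siPDL1-2 the difference was 0.40 ± 0.05 and 0.24 ± 0.05. Without IFNγ the partner gene *COL1A1* did not share this pattern: it was 25.1 ± 0.116 CPM in siNC and 25.3 ± 1.10 CPM in siPDL1-1, and its log2 fold change was 0.01 ± 0.09. After IFNγ *COL1A1* was at 14.9 and 12.0 CPM with siNC and higher, at 17.7 and 16.8 CPM, with siPDL1-1, a difference that was not called. *COL5A2* differed from siNC by 0.25 ± 0.04 with siPDL1-1 and 0.32 ± 0.04 with siPDL1-2 in unstimulated cells, both under the fold limit.

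Of the network-forming collagens, *COL4A1* passed the limits with siPDL1-1. Unstimulated, *COL4A1* was at 176 and 175 CPM with siNC, 270 and 275 CPM with siPDL1-1 and 214 and 207 CPM with siPDL1-2. After IFNγ it measured 188 and 186, 333 and 299, and 234 and 231 CPM in the same order. The siPDL1-1 libraries were highest in both states and siPDL1-2 lay between, without overlap. With siPDL1-1 the log2 fold change was 0.63 ± 0.05 unstimulated (limma adjusted p = 1.50e-07) and 0.75 ± 0.05 after IFNγ (limma adjusted p = 1.21e-08). *COL4A2*, which pairs with it in the basement membrane trimer and starts beside it on the opposite strand, differed by 0.25 ± 0.07 and 0.39 ± 0.07. *COL4A5* differed by 0.56 ± 0.05 with siPDL1-1 and 0.49 ± 0.05 with siPDL1-2 in unstimulated cells, just under the fold limit. *COL8A1* rose with siPDL1-2, from 12.3 ± 1.88 CPM to 21.4 ± 1.34 CPM in unstimulated cells (log2 fold change 0.75 ± 0.10, limma adjusted p = 4.31e-05), where siPDL1-1 gave 0.40 ± 0.10, under the fold limit.

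The 3 expressed type VI chains, which assemble into 1 trimer, were all higher with siPDL1-1 than with siNC in both states. With siPDL1-2, *COL6A3* was lower than with siNC. *COL6A1* stood at 604 and 665 CPM in unstimulated siNC cells, against 985 and 973 CPM with siPDL1-1 and 673 and 681 CPM with siPDL1-2. The IFNγ-stimulated libraries gave 480 and 394 CPM for siNC, 871 and 792 CPM for siPDL1-1 and 622 and 632 CPM for siPDL1-2. In both states the siPDL1-1 libraries were highest, at 0.63 ± 0.08 unstimulated (limma adjusted p = 0.000300) and 0.93 ± 0.08 after IFNγ (limma adjusted p = 1.41e-05) on the log2 scale. The unstimulated call was lost without the first siNC library, where the log2 fold change was 0.56. With siPDL1-2 it was 0.10 ± 0.08 unstimulated and 0.53 ± 0.08 after IFNγ, and neither passed.

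In siNC cells *COL6A2* was at 200 and 225 CPM unstimulated and 268 and 219 CPM after IFNγ. The matching values were 352 and 341, then 427 and 398 CPM in siPDL1-1 cells, and 207 and 206, then 315 and 333 CPM in siPDL1-2 cells. The siPDL1-1 libraries were above both other siRNAs in each state. siPDL1-1 raised *COL6A2* by 0.71 ± 0.09 unstimulated (limma adjusted p = 0.000124) and by 0.76 ± 0.09 after IFNγ (limma adjusted p = 5.21e-05). Unstimulated siPDL1-2 libraries overlapped with siNC, at -0.04 ± 0.09, and after IFNγ the difference of 0.42 ± 0.09 was under the fold limit.

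*COL6A3* encodes the longest chain of the type VI trimer, with a C-terminal fragment known as endotrophin. Unstimulated, *COL6A3* was at 77.7 and 79.4 CPM with siNC, 99.9 and 99.5 CPM with siPDL1-1 and 46.7 and 44.1 CPM with siPDL1-2. After IFNγ it measured 55.0 and 57.9, 76.8 and 75.0, and 40.1 and 34.5 CPM in the same order. The siPDL1-2 libraries were the lowest and the siPDL1-1 libraries the highest in each state, with siNC between them. siPDL1-2 lowered *COL6A3* with a log2 fold change of -0.78 ± 0.06 unstimulated (limma adjusted p = 3.20e-07) and -0.59 ± 0.06 after IFNγ (limma adjusted p = 9.22e-06). The latter lay at the fold limit, and was -0.58 with DESeq2 size factors, -0.55 without the second siNC library and -0.48 without the second siPDL1-2 library. With siPDL1-1 the differences of 0.34 ± 0.06 and 0.42 ± 0.06 were under the fold limit.

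**Figure D3:**
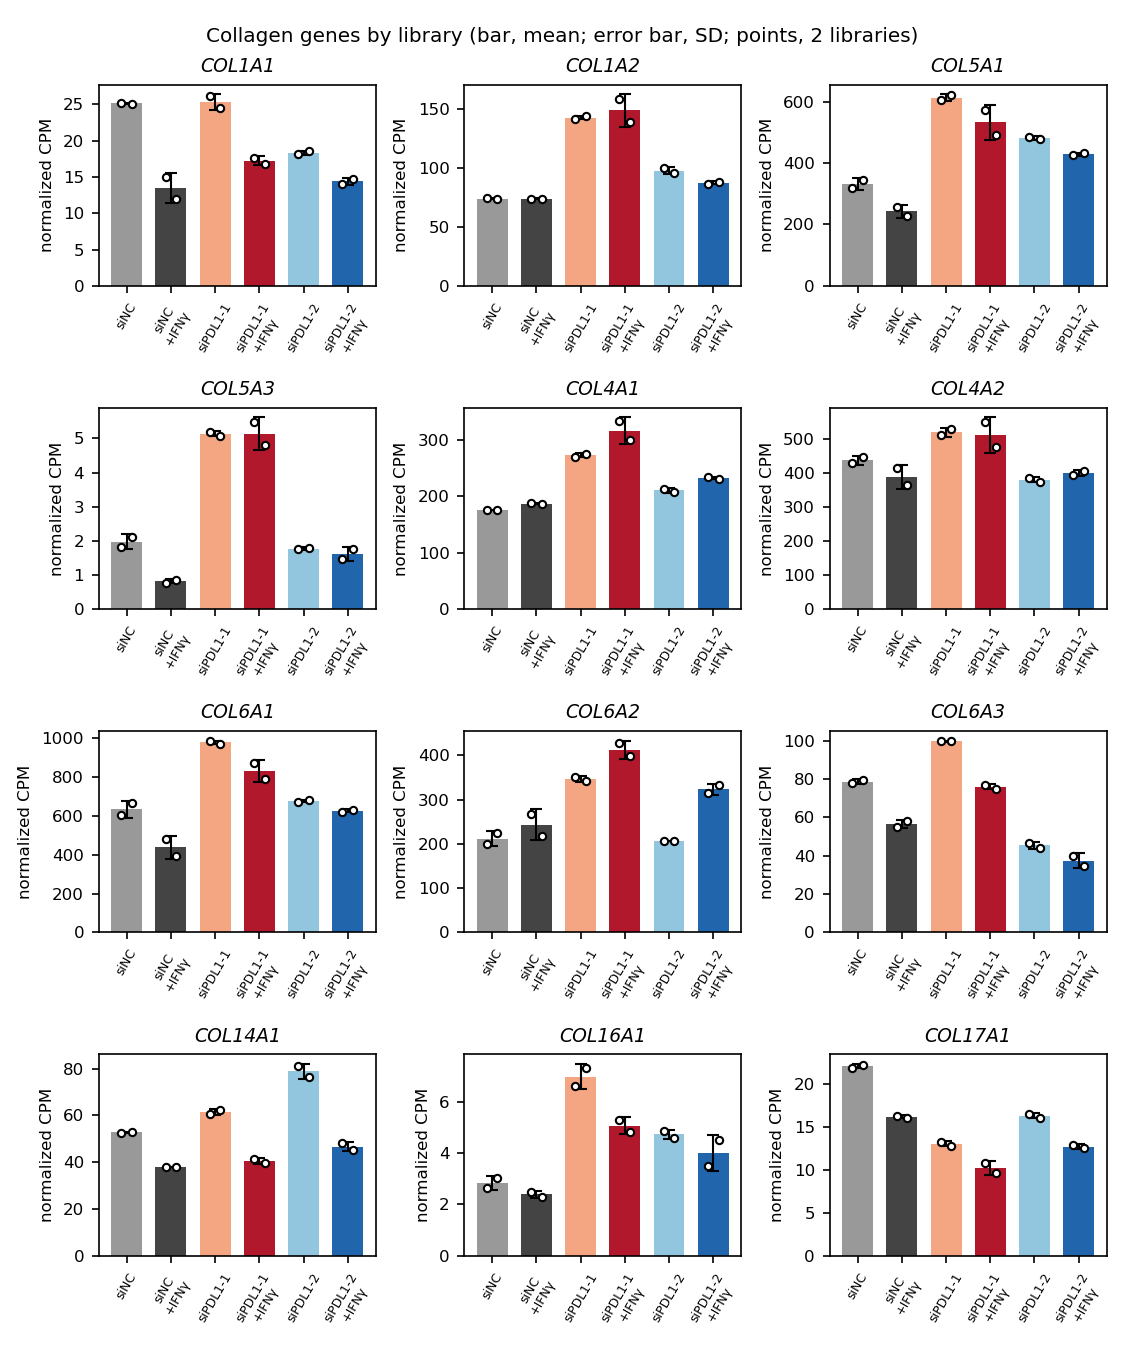
Normalized CPM of 12 collagen genes in each group (horizontal axis; bar, mean; error bar, SD; points, the 2 libraries), with a separate linear axis from 0 for each gene. *COL5A3* stands at 4.80 to 5.48 CPM in the siPDL1-1 groups and at or below 2.13 CPM elsewhere, while *COL6A3* is lowest in the siPDL1-2 groups.

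Among the FACIT collagens, *COL16A1*, which binds integrins and links cells to fibrils, was raised by siPDL1-1. *COL16A1* stood at 2.64 and 3.04 CPM in unstimulated siNC cells, against 6.64 and 7.34 CPM with siPDL1-1 and 4.86 and 4.61 CPM with siPDL1-2. The IFNγ-stimulated libraries gave 2.49 and 2.28 CPM for siNC, 5.31 and 4.85 CPM for siPDL1-1 and 3.52 and 4.50 CPM for siPDL1-2. No siNC library reached the level of any library given an siRNA against *PD-L1* in the same state. The log2 fold change with siPDL1-1 was 1.06 ± 0.12 unstimulated (limma adjusted p = 9.06e-06) and 0.84 ± 0.12 after IFNγ (limma adjusted p = 5.30e-05), and with siPDL1-2 it was 0.58 ± 0.12 and 0.56 ± 0.12. Those for siPDL1-2 were just under the fold limit and passed it by edgeR, at 0.69 and 0.78.

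*COL9A3*, a chain of the cartilage FACIT type IX, changed with siPDL1-1 only after IFNγ by the limits used. In siNC cells *COL9A3* was at 4.50 and 5.04 CPM unstimulated and 2.94 and 2.59 CPM after IFNγ. The matching values were 6.70 and 7.08, then 6.07 and 5.03 CPM in siPDL1-1 cells, and 4.50 and 4.58, then 4.40 and 4.33 CPM in siPDL1-2 cells. The siNC libraries given IFNγ were the lowest. The log2 fold change of siPDL1-1 over siNC was 0.80 ± 0.11 after IFNγ (limma adjusted p = 4.17e-05) and 0.45 ± 0.11 before it, and the interaction that tests the difference did not pass. *COL9A2* differed from siNC by 0.54 ± 0.14 after IFNγ with siPDL1-2, and by edgeR the value was 0.68 and passed.

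The anchoring fibril gene *COL7A1* rose with siPDL1-1. Unstimulated, *COL7A1* was at 5.92 and 7.29 CPM with siNC, 11.7 and 11.5 CPM with siPDL1-1 and 9.13 and 9.71 CPM with siPDL1-2. After IFNγ it measured 5.22 and 5.15, 10.6 and 9.64, and 7.21 and 7.30 CPM in the same order. The siPDL1-1 libraries were highest in each state, with siPDL1-2 between them and siNC. With siPDL1-1 the log2 fold change was 0.73 ± 0.10 unstimulated (limma adjusted p = 4.36e-05) and 0.84 ± 0.10 after IFNγ (limma adjusted p = 8.53e-06). *COL26A1*, at about 1 CPM, measured 0.722 ± 0.0521 CPM in siNC and 1.64 ± 0.186 CPM in siPDL1-1 without IFNγ (log2 fold change 0.61 ± 0.14, limma adjusted p = 0.00313). That call was lost by edgeR (adjusted p = 0.0123), by DESeq2 (adjusted p = 0.0465) and without any 1 of its 4 libraries.

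*COL17A1*, an epithelial anchoring protein, was the only member that siPDL1-1 lowered. *COL17A1* stood at 21.8 and 22.2 CPM in unstimulated siNC cells, against 13.2 and 12.8 CPM with siPDL1-1 and 16.5 and 16.1 CPM with siPDL1-2. The IFNγ-stimulated libraries gave 16.3 and 16.0 CPM for siNC, 10.7 and 9.60 CPM for siPDL1-1 and 12.8 and 12.5 CPM for siPDL1-2. The siNC libraries were highest and siPDL1-1 lowest in each state. The log2 fold change with siPDL1-1 was -0.72 ± 0.07 unstimulated (limma adjusted p = 3.87e-06) and -0.62 ± 0.07 after IFNγ (limma adjusted p = 1.10e-05), the latter being -0.55 without the second siPDL1-1 library. With siPDL1-2 it was -0.41 ± 0.07 and -0.33 ± 0.07, under the fold limit. *COL13A1*, the other transmembrane collagen with a mean of 1 CPM or more, lay between 19.7 and 24.0 CPM in all libraries.

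The effect of IFNγ itself was asked within each siRNA. Changes past both limits were few, and pointed down in all but 1 case. In siNC cells IFNγ raised none of the 35 members and lowered 3, against a background of 6.67% of genes raised and 1.45% lowered. In siPDL1-1 cells it raised none and lowered 1 (background 5.58% and 1.3%), and in siPDL1-2 cells it raised 1 and lowered 1 (background 3.62% and 1.65%). By FDR alone 12 members were lower in siNC cells (background 9.34%), 6 in siPDL1-1 cells (background 8.49%) and 6 in siPDL1-2 cells (background 7.56%). Higher by FDR alone were 0, 1 and 1 members in the same order, for which the share of all genes was not computed. The median log2 fold change of the members was -0.20, -0.18 and -0.17, while the medians over all genes lay between -0.02 and 0.00. Without the first siNC library given IFNγ, 6 members were lowered in siNC cells.

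The 3 genes lowered in siNC cells were *COL1A1*, *COL5A3* and *COL9A3*. *COL1A1* went from 25.1 ± 0.116 to 13.5 ± 2.09 CPM (log2 fold change -0.86 ± 0.09, limma adjusted p = 1.56e-06). *COL5A3* differed by -0.71 ± 0.12 (limma adjusted p = 0.000194) and *COL9A3* by -0.62 ± 0.11 (limma adjusted p = 0.000347), a call lost without the second library of either group. *COL1A1* also differed by -0.53 ± 0.09 in siPDL1-1 cells and by -0.33 ± 0.09 in siPDL1-2 cells, both under the fold limit. *COL1A2* did not follow its partner, with -0.00 ± 0.05, 0.06 ± 0.05 and -0.16 ± 0.05.

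*COL14A1*, a FACIT collagen that regulates fibril growth, was lower with IFNγ in each siRNA. Unstimulated, *COL14A1* was at 52.6 and 52.9 CPM with siNC, 60.5 and 62.3 CPM with siPDL1-1 and 81.1 and 76.5 CPM with siPDL1-2. After IFNγ it measured 38.1 and 37.9, 41.2 and 39.6, and 48.1 and 45.2 CPM in the same order. Stimulated and unstimulated libraries did not overlap for any siRNA. IFNγ lowered it in siPDL1-2 cells (log2 fold change -0.74 ± 0.05, limma adjusted p = 4.13e-08) and, at the fold limit, in siPDL1-1 cells (-0.59 ± 0.05, limma adjusted p = 4.39e-07). The latter was -0.57 without the second unstimulated siPDL1-1 library and -0.56 without the second stimulated one. In siNC cells it was -0.46 ± 0.05, with an FDR that passed and a fold that did not. *COL12A1*, which resembles it in structure, differed by -0.50 ± 0.06, -0.38 ± 0.06 and -0.36 ± 0.06 in siNC, siPDL1-1 and siPDL1-2 cells, each past the FDR alone.

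The 1 member that IFNγ raised was *COL6A2*, in siPDL1-2 cells, with a log2 fold change of 0.65 ± 0.09 (limma adjusted p = 0.000261). In siNC and siPDL1-1 cells the values were 0.19 ± 0.09 and 0.25 ± 0.09 and did not pass. *COL6A1* went the other way, at -0.54 ± 0.08, -0.24 ± 0.08 and -0.11 ± 0.08 in siNC, siPDL1-1 and siPDL1-2 cells, where only the first passed the FDR.

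The *COL6A1* and *COL6A2* transcripts, whose genes lie 93061 bases apart in the same direction on chromosome 21, therefore changed in ratio. Per kb of transcript, *COL6A1* was 2.45 ± 0.0386 times *COL6A2* in unstimulated siNC cells and 1.47 ± 0.00587 times after IFNγ. The ratio went from 2.32 ± 0.0288 to 1.65 ± 0.0282 in siPDL1-1 cells and from 2.69 ± 0.0353 to 1.59 ± 0.0453 in siPDL1-2 cells. The 6 stimulated libraries lay below the 6 unstimulated ones without overlap. These ratios are descriptions and carry no test.

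For the type I chains, *COL1A2* over *COL1A1* per kb was 3.43 ± 0.00668 in unstimulated siNC cells and lay between 5.75 and 10.5 in all libraries of the other groups. It was 6.47 ± 1.03 in siNC cells after IFNγ, 6.58 ± 0.359 and 10.0 ± 0.596 in siPDL1-1 cells without and with IFNγ, and 6.22 ± 0.263 and 7.08 ± 0.156 in siPDL1-2 cells. Type I collagen trimers usually hold more of the chain from *COL1A1* than of that from *COL1A2*, whereas the transcripts here stood the other way round in all 12 libraries. *COL4A2* over *COL4A1* was highest in unstimulated siNC cells, at 2.53 ± 0.0791, and lowest in siPDL1-1 cells after IFNγ, at 1.64 ± 0.0419. *COL5A1* over *COL5A2* was 2.10 ± 0.111 in siNC and 3.28 ± 0.0441 in siPDL1-1 cells without IFNγ.

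**Figure D4:**
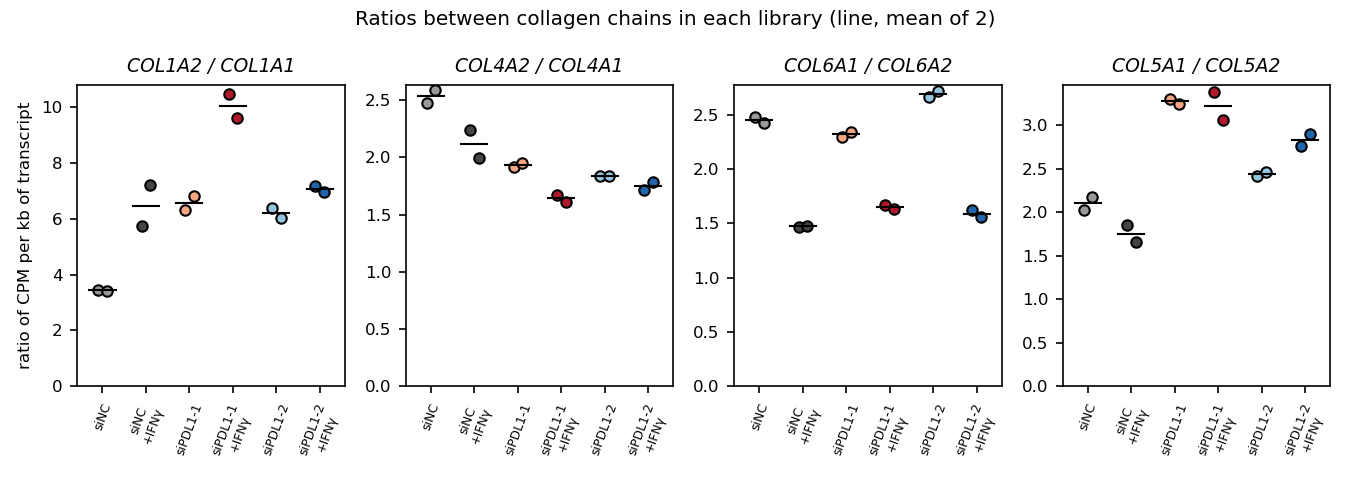
Ratio of CPM per kb of transcript between 2 chains of the same collagen type (vertical axis, linear from 0) in each library (points, colored by group) with the mean of each group as a line. The *COL6A1* to *COL6A2* ratio lies at 2.30 or above in unstimulated libraries and at 1.67 or below after IFNγ for every siRNA.

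The siRNAs against *PD-L1* were next compared with each other. In unstimulated cells 4 members were higher with siPDL1-1 than with siPDL1-2 and none lower, against a background of 0.884% of genes higher and 3.47% lower. After IFNγ 3 were higher and none lower (background 1.79% and 0.439%). *COL6A3* showed a log2 difference of 1.12 ± 0.06 unstimulated (limma adjusted p = 2.97e-08) and 1.01 ± 0.06 after IFNγ (limma adjusted p = 2.52e-08). *COL5A3* differed by 1.15 ± 0.12 (limma adjusted p = 5.45e-06) and 1.23 ± 0.12 (limma adjusted p = 2.80e-06). *COL6A2* differed by 0.74 ± 0.09 unstimulated (limma adjusted p = 8.84e-05), and *COL1A2* by 0.76 ± 0.05 after IFNγ (limma adjusted p = 1.35e-07). *COL18A1* differed by 0.63 ± 0.13 unstimulated (limma adjusted p = 0.00800), a call that was lost under 8 of 12 omissions of 1 library. No difference of this kind that misses the limits shows that the siRNAs acted alike.

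Whether an siRNA changed the response to IFNγ was tested as an interaction. For siPDL1-1 none of the 35 members passed by limma (background 0.968% of genes in either direction), and 5 had an unadjusted p under 0.05. edgeR called 1, *COL5A3* (1.35 on the log2 scale), where 150 of all 17982 genes passed upward and 9 downward. For siPDL1-2 none passed by limma (background 7.62%), and 14 had an unadjusted p under 0.05. edgeR called 4, where 532 of all genes passed upward and 970 downward, and DESeq2 called 2, where 487 and 861 did. The share of all genes with an unadjusted p under 0.05 is not given, so the 5 and 14 are not read as particular to collagens. By FDR alone 2 passed for siPDL1-2, *COL1A1* at 0.53 ± 0.12 (limma adjusted p = 0.00446) and *COL8A1* at -0.57 ± 0.15 (limma adjusted p = 0.00859). The log2 difference with IFNγ was -0.86 ± 0.09 in siNC and -0.33 ± 0.09 in siPDL1-2 cells for *COL1A1*, and 0.21 ± 0.10 and -0.37 ± 0.10 for *COL8A1*. These names were chosen after their values were seen.

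Collagen chains need enzymes, chaperones and partners, and 57 such genes in 5 lists were followed, of which 54 could be tested. In unstimulated cells siPDL1-1 raised 12 of the 54 and lowered none, and after IFNγ again raised 12 and lowered none. siPDL1-2 raised 5 and then 4, and lowered none in either state. The shares of all genes raised by siPDL1-1, 2.55% unstimulated and 3.73% after IFNγ, and by siPDL1-2, 4.84% and 1.92%, are the background of these counts.

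For modification of the chains, *COLGALT2*, which adds galactose to collagen hydroxylysine, was raised in all 4 comparisons with siNC. Its log2 fold change was 0.75 ± 0.10 and 0.77 ± 0.10 with siPDL1-1 and 0.87 ± 0.10 and 0.70 ± 0.10 with siPDL1-2, unstimulated and after IFNγ. siPDL1-2 in unstimulated cells also raised *P4HA1*, a prolyl hydroxylase subunit that stabilizes the helix, by 0.64 ± 0.04, and *PLOD2*, a lysyl hydroxylase, by 0.71 ± 0.06. *SERPINH1*, the collagen chaperone HSP47, was raised by siPDL1-1, by 0.66 ± 0.11 unstimulated and 0.92 ± 0.11 after IFNγ.

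For maturation outside the cell, *ADAMTS14*, which removes the N-propeptide, was raised in all 4 comparisons, from 1.16 ± 0.115 CPM in siNC to 4.16 ± 0.434 with siPDL1-1 and 2.80 ± 0.168 CPM with siPDL1-2 in unstimulated cells. After IFNγ its log2 fold change was 1.54 ± 0.12 and 1.01 ± 0.12. In cells given IFNγ, the crosslinking enzymes *LOXL1* and *LOXL4* were higher with either siRNA than with siNC. *LOXL1* differed by 0.84 ± 0.10 and 0.82 ± 0.10 and *LOXL4* by 0.65 ± 0.13 and 0.59 ± 0.13 with siPDL1-1 and siPDL1-2. siPDL1-1 also raised *LOXL4* in unstimulated cells. *BMP1*, which removes the C-propeptide, was raised by 0.59 ± 0.08 with siPDL1-1 after IFNγ.

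Of proteins that associate with fibrils, *FBN1* (fibrillin-1) went from 81.1 ± 0.314 CPM to 182 ± 0.246 CPM with siPDL1-1 without IFNγ (log2 fold change 1.16 ± 0.05, limma adjusted p = 2.43e-09) and changed by 1.13 ± 0.05 after it. *FN1* (fibronectin) was raised by 0.76 ± 0.04 and 0.63 ± 0.04 and *SPARC*, a collagen-binding matricellular protein, by 0.59 ± 0.03 in unstimulated cells. Collagen receptors *ITGA11*, an integrin chain for fibrillar collagen, and *MRC2*, an endocytic collagen receptor, were raised by siPDL1-1 by 1.01 ± 0.12 and 0.70 ± 0.07, and after IFNγ by 1.19 ± 0.12 and 0.64 ± 0.07. *ITGA2* was raised by siPDL1-2 in unstimulated cells, by 0.82 ± 0.07.

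Of the 54 partners tested, IFNγ raised 1 and lowered 1 in siNC cells, where 6.67% of all genes were raised and 1.45% lowered. It raised none and lowered 2 in siPDL1-1 cells (5.58% and 1.3% of all genes) and again none and 2 in siPDL1-2 cells (3.62% and 1.65%). In siNC cells it raised *P4HA1* by 0.70 ± 0.04 and lowered *THBS1* (thrombospondin-1) by a log2 fold change of -0.77 ± 0.04. In siPDL1-1 cells it lowered *TLL2* at -0.76 ± 0.15 and *LOXL4* at -0.60 ± 0.13. In siPDL1-2 cells it lowered *THBS1* at -0.96 ± 0.04 and *LAIR1*, an inhibitory collagen receptor, at -0.63 ± 0.14. The interaction with IFNγ passed for 1 of the 54 with siPDL1-1 (0.968% of all genes) and for 5 with siPDL1-2 (7.62% of all genes). For siPDL1-1 this was *LOX* at -0.69 ± 0.10, and for siPDL1-2 *ITGA2* passed at -0.61 ± 0.11, *TMEM38B* at -0.59 ± 0.12, *P4HA1* at -0.71 ± 0.06, *PLOD2* at -0.63 ± 0.09 and *LOXL1* at 0.70 ± 0.14.

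Markers of collagen-producing stromal cells were read beside these values. Of 6 fibroblast and mesenchymal markers 3 reached 1 CPM, with *THY1* at 303 CPM, and the defining matrix genes *DCN*, *LUM* and *POSTN* were at 0.0334, 0.146 and 0.151 CPM. Their summed level was 301 to 303 CPM in siNC, 438 to 450 in siPDL1-1 and 421 to 426 CPM in siPDL1-2 cells without IFNγ, and 175 to 183, 276 to 281 and 255 to 276 CPM after it. Both pericyte markers found, *MCAM* and *CSPG4*, reached 1 CPM, and their sum was 29.3 to 30.8, 67.0 to 67.6 and 47.1 to 48.4 CPM in unstimulated siNC, siPDL1-1 and siPDL1-2 cells, and 16.2 to 17.5, 44.1 to 45.3 and 26.7 to 29.8 CPM after IFNγ. Of 5 endothelial markers 2 reached 1 CPM, and the sum was 9.40 to 10.8, 12.4 to 13.0 and 10.2 to 12.0 CPM unstimulated and 5.86 to 6.04, 7.29 to 7.75 and 5.75 to 6.18 CPM after IFNγ, in the same order. Of 5 leukocyte markers only *CD68* reached 1 CPM, at 46.0 CPM, and *PTPRC*, which defines leukocytes, was at 0.0955 CPM. The leukocyte sum was 28.3 to 28.9, 37.5 to 39.8 and 41.1 to 44.4 CPM unstimulated and 41.7 to 42.2, 75.1 to 80.5 and 47.4 to 50.7 CPM after IFNγ. The part of these marker genes in the collagen values was not tested.

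Promoter sequences from RefSeq on GRCh38.p14 are shown for a few members, chosen with their values known: the divergent pair *COL4A1* and *COL4A2*, the type V genes *COL5A1* and *COL5A3*, *COL6A2*, which was raised by siPDL1-1 and, in siPDL1-2 cells, by IFNγ, and *COL17A1*, which siPDL1-1 lowered. Capitals mark matches on either strand to the GC box GGGCGG, to CCAAT, to TATAAA, to the interferon-γ activation site TTCNNNGAA and to the interferon-stimulated response element, searched as a pair of GAAA blocks set apart by any 2 bases. No match of 1 motif was removed for overlap with another. RefSeq windows were found for 32 of the members, some with several start sites. The first sequence is from the shared promoter of *COL4A1* and *COL4A2*, at chr13:110307158-110307257, plus strand, where the RefSeq start sites of the divergent genes lie 126 bases apart. The others are the 250 bases before the start of *COL5A1* (chr9:134641553-134641802, plus strand), *COL5A3* (chr19:10010505-10010754, minus strand), *COL6A2* (chr21:46097862-46098111, plus strand) and *COL17A1* (chr10:104085881-104086130, minus strand).
COL4A1-COL4A2: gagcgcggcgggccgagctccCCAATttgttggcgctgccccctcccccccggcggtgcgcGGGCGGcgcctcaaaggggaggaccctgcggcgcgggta
COL5A1: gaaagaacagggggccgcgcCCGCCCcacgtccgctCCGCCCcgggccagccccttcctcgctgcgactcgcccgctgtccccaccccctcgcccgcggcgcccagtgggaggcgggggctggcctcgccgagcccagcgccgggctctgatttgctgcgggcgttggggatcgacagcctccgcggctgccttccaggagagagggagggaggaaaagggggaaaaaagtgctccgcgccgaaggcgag
COL5A3: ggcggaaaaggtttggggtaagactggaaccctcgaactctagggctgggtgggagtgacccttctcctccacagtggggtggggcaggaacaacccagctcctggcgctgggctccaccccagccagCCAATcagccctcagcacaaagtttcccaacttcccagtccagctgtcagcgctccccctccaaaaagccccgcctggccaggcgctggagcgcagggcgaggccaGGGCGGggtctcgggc
COL6A2: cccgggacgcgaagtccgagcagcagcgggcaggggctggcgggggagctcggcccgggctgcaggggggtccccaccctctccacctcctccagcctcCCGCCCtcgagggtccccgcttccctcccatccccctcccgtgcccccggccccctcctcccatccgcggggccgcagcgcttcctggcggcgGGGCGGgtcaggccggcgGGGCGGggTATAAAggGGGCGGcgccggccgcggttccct
COL17A1: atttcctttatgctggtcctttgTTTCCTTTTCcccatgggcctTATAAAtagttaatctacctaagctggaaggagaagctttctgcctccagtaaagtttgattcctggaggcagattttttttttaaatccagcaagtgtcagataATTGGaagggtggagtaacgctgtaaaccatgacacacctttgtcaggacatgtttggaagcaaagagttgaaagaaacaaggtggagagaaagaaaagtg

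G and C made up 78.0% of the sequence for the region shared by *COL4A1* and *COL4A2*, 74.0% for *COL5A1*, 79.6% for *COL6A2* and 66.0% for *COL5A3* and 40.4% for *COL17A1*. The share was computed for these sequences and not for those of the other members. In windows from 250 bases before to 50 after the start, the GC box was found in 24 of the 44 windows of members and 44.95% of all 35116 windows. CCAAT was found in 14 windows of members and 34.61% of all, and TATAAA in 8 and 11.53%. The interferon-γ activation site was present in 2 windows of members (*COL7A1* and *COL11A2*) and 7.657% of all windows, and the response element in 1 (*COL17A1*) and 3.574%. A match describes letters only and is not a site of binding.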

How the data were processed

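U251 RNA was sequenced as poly(A)-selected libraries, and labels gave 6 groups of 2. Per the methods, trimming, mapping to GRCh38 (Ensembl genes), counting on both strands without broken pairs and normalization were done by the authors in CLC Genomics Workbench. The signal values used are the normalized CPM deposited by the authors. Beside library size they carry a factor of 0.959 to 1.04 by which counts were divided. This factor was above 1 in the unstimulated libraries and below 1 in those given IFNγ. Each value divided by the CPM of 1 read gave a whole number (100% in each library, tolerance 0.01 read), and these recovered reads served for the filter and the count tests. Libraries held 17101069 to 55657393 reads on genes.

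Genes were kept with edgeR 4.0.16 filterByExpr (minimum count 10, minimum total 15), which left 17982. Log2(CPM + 1) was fitted with limma 3.58.1 (R 4.3.3; trend and robust empirical Bayes) for all 12 libraries in 6 groups, with Benjamini-Hochberg adjustment over all genes kept. A call needed an FDR under 0.01 and a fold change over 1.5. Fold changes on this scale understate those of low genes. Alternatives were edgeR's quasi-likelihood test and the DESeq2 1.42.0 Wald test on recovered reads, DESeq2 size factors, a pseudocount of 0.1, no filter, only the groups compared, the replicate number as a block, and each library left out. The limma fit was checked on simulated data.

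The members, the gene lists and the tests were chosen with earlier results of these data known. Named with values are members with a mean of at least 1 CPM or called in any comparison (31 in all), libraries being listed for those called in 2 comparisons or more. Members below 1 CPM and never called are named by class, with their mean or range. For the partner lists, up to 3 called genes per list and comparison with the smallest FDR qualify, and the text gives a selection of these. Transcript lengths are those of the GENCODE v44 canonical transcripts. Spans of 37 members equal those in GENCODE.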

Additional observations from a re-analysis of the deposited data

Results flagged for a closer look

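Differences between the siRNAs against *PD-L1* that passed the test concern 5 collagen genes, all higher with siPDL1-1. In unstimulated cells these were *COL18A1* (log2 difference 0.63, limma adjusted p = 0.00800, a call lost under 8 of 12 omissions of 1 library), *COL6A2* (0.74, limma adjusted p = 8.84e-05), *COL6A3* (1.12, limma adjusted p = 2.97e-08) and *COL5A3* (1.15, limma adjusted p = 5.45e-06). After IFNγ they were *COL1A2* (0.76, limma adjusted p = 1.35e-07), *COL6A3* (1.01, limma adjusted p = 2.52e-08) and *COL5A3* (1.23, limma adjusted p = 2.80e-06). For each, both siPDL1-1 libraries lay above both siPDL1-2 libraries. The genes were picked by the test on these same libraries, so this is no further support.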

How the results depend on the processing

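Of the 37 calls of a collagen gene in a comparison, 30 held under every alternative run, 7 were lost under at least 1 and none reversed direction, while 27 further calls appeared under at least 1. For siPDL1-2 against siNC after IFNγ, the 2 members called became 6 by edgeR, 5 by DESeq2, 1 with DESeq2 size factors and 6 with a pseudocount of 0.1, and 1 to 5 with 1 library left out. For the interaction of siPDL1-1 with IFNγ, the count of 0 became 1 by edgeR. For that of siPDL1-2, 0 became 4 by edgeR and 2 by DESeq2, with DESeq2 size factors and with a pseudocount of 0.1, and 0 to 3 with 1 library left out. Leaving out 1 library gave 2 to 6 for IFNγ in siNC cells, 0 to 2 for IFNγ in siPDL1-1 cells and 2 to 5 for siPDL1-2 against siNC without IFNγ. The cause of these shifts was not tested. Over all genes, those lowered by IFNγ in siNC cells numbered 260 by limma, 468 by edgeR, 391 with a pseudocount of 0.1 and 414 without the first siNC library given IFNγ. Those lowered by siPDL1-2 without IFNγ numbered 240 by limma and 372 by edgeR, and those higher with siPDL1-1 than with siPDL1-2 without IFNγ 159 and 243. Without the second siPDL1-2 library given IFNγ the interaction count of siPDL1-2 was 890 in place of 1370, without the second siNC library given IFNγ the genes raised by siPDL1-2 were 223 in place of 346, and without the first siPDL1-1 library given IFNγ those lower than with siPDL1-2 were 125 in place of 79.

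With the replicate number as a block, collagen calls were 3, 1 and 2 for IFNγ in siNC, siPDL1-1 and siPDL1-2 cells, 10 and 10 for siPDL1-1 and 2 and 2 for siPDL1-2 against siNC, 3 and 3 between the siRNAs and 0 for both interactions. Under this block *COL18A1* was the single call lost (adjusted p = 0.0132). The labels do not say whether equal numbers mark 1 experiment. Deviations of equally numbered libraries correlated at -0.132 to 0.194 over 15 pairs of groups, above 0 in 7 and above 0.1 in 2. With 2 libraries in each group, such weak correlations cannot exclude a pairing with small effects. Depth limits genes near 1 CPM, such as *COL26A1*.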
